A study of Mus musculus with 17 samples.

Results

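The RNA levels of 8 genes, Car2, Car4, Ckb, Bcat1, Fabp3, Adarb2, Crmp1 and Def8, were followed across 6 cultured mouse cell types. The genes were chosen from the genes described as bivalent in spermatogonial stem and progenitor cells (SSCs) because their RNA was much higher in multipotent adult spermatogonial-derived stem cells (MASCs), with no numeric limit given for that rise. Each gene is represented by the RefSeq transcript with the highest mean level over the 17 samples, so that 8 of the 15 RefSeq transcripts listed for these genes are followed, out of 32661 transcripts of 23891 gene symbols in all. A bivalent promoter carries both an activating and a repressive histone mark, trimethylation of histone H3 on lysine 4 and on lysine 27, and is thought to keep a silent gene ready for activation. The histone marks themselves were not analysed here. The 8 genes have been grouped as enzyme genes, which is what Car2, Car4, Ckb and Bcat1 are, while Fabp3 codes for a fatty acid carrier, Crmp1 for a cytoskeletal protein of the dihydropyrimidinase-related family, and Def8 for a protein that acts at lysosomes. Adarb2 belongs to the RNA editing deaminase family.

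The samples are 4 lines of SSCs, 6 of MASCs, 2 embryonic stem cell (ESC) lines, 2 induced pluripotent stem (iPS) cell lines, 2 cultures of haematopoietic stem and progenitor cells (HSCs) and 1 sample of mouse embryonic fibroblasts (MEFs), all measured by RNA sequencing. SSC.1 and SSC.2 are Oct4-GFP, SSC.3 is C57Bl/6J and SSC.4 is 129mix. MASC.1 and MASC.2 are Oct4-GFP, MASC.3 and MASC.4 are 129mix, and MASC.5 and MASC.6 are Gt(ROSA26)Sor-lacZ. ESC.1 is Oct4-GFP and ESC.2 is 129mix, both iPS lines and the MEF sample are 129mix, and both HSC cultures are C57Bl/6J. MASC lines were established from colonies picked by their shape after long expansion of SSCs in culture. The iPS lines came from tetO-4F2A x H3.3B-HA fibroblasts of day 13.5 embryos treated with 2 μg/ml doxycycline, and the MEF sample from H3.3B-HA embryos of the same day. SSC lines grew on MEF feeders in SSC medium and were freed of feeders by plating, MASC, ESC and iPS lines grew with MEFs in ESC medium, and the lineage-negative bone marrow cells labelled HSC grew on human endothelial feeders carrying E4ORF1. Cell type therefore cannot be told apart from medium between SSC and MASC lines, nor from strain and culture between HSC cultures and the pluripotent lines. The labels number the samples within a cell type but do not name the animals behind them, so p-values measure the spread between these samples.

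Carbonic anhydrases interconvert carbon dioxide and bicarbonate, and thereby set pH, Car2 in the cytosol and Car4 at the cell surface. Ckb moves phosphate between ATP and creatine to buffer cellular energy. Bcat1 starts the breakdown of leucine, isoleucine and valine in the cytosol by passing their amino group to a keto acid, and Fabp3 carries fatty acids through the cytosol of muscle and other tissues. Pluripotent cells in culture divide rapidly and draw on glycolysis and amino acid catabolism, and in the adult animal most of these 8 genes are best known from differentiated tissues such as brain, muscle, heart, kidney or red cells.

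The marker genes of the labelled cell types were checked first. The 6 pluripotency markers summed to between 1379 and 1697 FPKM, a read level scaled to transcript length and library size, in the MASC lines, to between 1586 and 2641 in the ESC and iPS lines and to between 7.39 and 18.8 in 3 SSC lines, with 113.7 in SSC.1. Pou5f1, which the study describes as expressed by SSCs, made up 94.5 FPKM of the SSC.1 sum. Nanog stood at no more than 0.0435 FPKM in the SSC lines. The 6 spermatogonial markers summed to between 464 and 566 in the SSC lines and to between 7.88 and 32.9 in the MASC lines. The 8 fibroblast markers, among them Col1a2 and Dcn, varied within the groups, from 12.9 (SSC.2) to 859 (SSC.3) in SSC lines, from 21.5 (MASC.5) to 982 (MASC.1) in MASC lines, from 67.9 (ESC.2) to 383 (ESC.1) in ESC lines, from 11.8 to 50.3 in iPS lines and from 2.33 (HSC.1) to 446 (HSC.2) in HSC cultures, against 6808 in the MEF sample. The 6 blood markers summed to 2463 and 1630 in the HSC cultures, to 220 in the MEF sample and to at most 100.3 (MASC.3) elsewhere. All 6 were at 1 FPKM or more in the MEF sample, and the part of blood cells in its values was not tested. The 4 endothelial markers summed to 42.4 and 25.2 in the HSC cultures and to at most 18.6 elsewhere. Most of the HSC sums was Pecam1, at 42.3 and 19.2 FPKM, while Cdh5, Kdr and Tek each reached at most 3.45 FPKM there. Only 1 of the 4 was at 1 FPKM or more in HSC.1, against 4 in HSC.2. The part of endothelial cells in these values was not tested. In such bulk samples, fewer cells of a type and less RNA per cell cannot be told apart.

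The starts of the genes are shown because they differ in CG dinucleotides, the sites of DNA methylation, although all 8 genes were chosen for the same rise. Promoter windows of 250 bases before the start were found in the RefSeq table (GRCm38.p6) for 7 of the 8 genes, all but Car2, and were placed on mm9, the build of the expression files, by an exact match. CG dinucleotides are in capitals, and each sequence reads 5′ to 3′ on the strand of its gene. The first is the window richest in CG, the second one that holds the letters TATAAA beside many CG, the third the one poorest in CG, and the last the start shared by all 3 RefSeq forms of Adarb2. The windows are chr4:129985732-129985981 on the plus strand for Fabp3, ending 40 bases before the transcript start of the files, and, ending directly at that start, chr12:112910550-112910799 on the minus strand for Ckb, chr6:145024678-145024927 on the minus strand for Bcat1, and chr13:8201862-8202111 on the plus strand for Adarb2.
Fabp3: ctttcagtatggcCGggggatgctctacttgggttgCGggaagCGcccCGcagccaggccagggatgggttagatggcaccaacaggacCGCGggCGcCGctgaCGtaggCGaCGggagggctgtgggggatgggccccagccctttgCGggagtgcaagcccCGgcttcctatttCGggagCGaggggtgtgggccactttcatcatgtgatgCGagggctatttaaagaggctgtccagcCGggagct
Ckb: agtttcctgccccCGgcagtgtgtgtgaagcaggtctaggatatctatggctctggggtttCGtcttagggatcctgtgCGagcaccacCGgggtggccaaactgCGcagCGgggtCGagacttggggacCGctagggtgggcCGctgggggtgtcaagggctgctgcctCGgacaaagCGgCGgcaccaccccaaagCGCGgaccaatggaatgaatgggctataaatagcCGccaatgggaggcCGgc
Bcat1: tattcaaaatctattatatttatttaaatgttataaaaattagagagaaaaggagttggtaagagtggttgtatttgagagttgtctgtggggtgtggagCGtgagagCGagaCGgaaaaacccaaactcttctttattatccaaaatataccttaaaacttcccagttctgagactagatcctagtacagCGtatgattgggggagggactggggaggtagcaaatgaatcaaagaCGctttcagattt
Adarb2: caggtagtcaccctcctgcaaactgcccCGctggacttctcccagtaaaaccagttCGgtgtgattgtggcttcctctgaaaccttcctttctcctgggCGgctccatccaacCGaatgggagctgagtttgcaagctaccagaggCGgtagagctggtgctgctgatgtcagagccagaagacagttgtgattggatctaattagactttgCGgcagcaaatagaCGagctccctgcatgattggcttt
The Fabp3 window held 17 CG dinucleotides, those of Ckb and Crmp1 16 each, Car4 11, Adarb2 7, Def8 6 and Bcat1 5, and 5 of the 7 lay above the median of 6 over 32851 mouse promoter windows of this length, whose quartiles were 2 and 16. The share of G and C ran from 37.6% in Bcat1 to 64.8% in Fabp3, with a median over all windows of 52.4%. The letters TATAAA on the strand of the gene were present in the windows of Ckb and Bcat1, 2 of 7, and in 7.59% of all windows. The letters GGGCGG on either strand were present in those of Crmp1 and Adarb2, 2 of 7, and in 32.7% of all windows. The 7 promoters thus shared neither CG content nor either of these motifs.

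In the SSC lines, RNA of all 8 genes was low, and in the 6 MASC lines it was high in every line. This rise is what the genes were chosen for, and the values that follow describe it without a test. Car2 RNA was 0.0572, 0.178, 0.164 and 0.0447 FPKM in SSC.1 to SSC.4, and in the MASC lines it ran from 23.5 over a median of 29.4 to 47.8 FPKM. Car4 RNA was 0.149, 0.129, 0.0946 and 0.452 FPKM in the SSC lines and ran from 7.69 over a median of 15.0 to 39.5 in the MASC lines. Both carbonic anhydrases were thus close to absent in SSC lines, where the coverage of Car2 was at most 0.51 reads per base, and the ratio of the mean FPKM was 279.6 for Car2, the highest of the 8, and 89.4 for Car4.

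**Figure D1:**
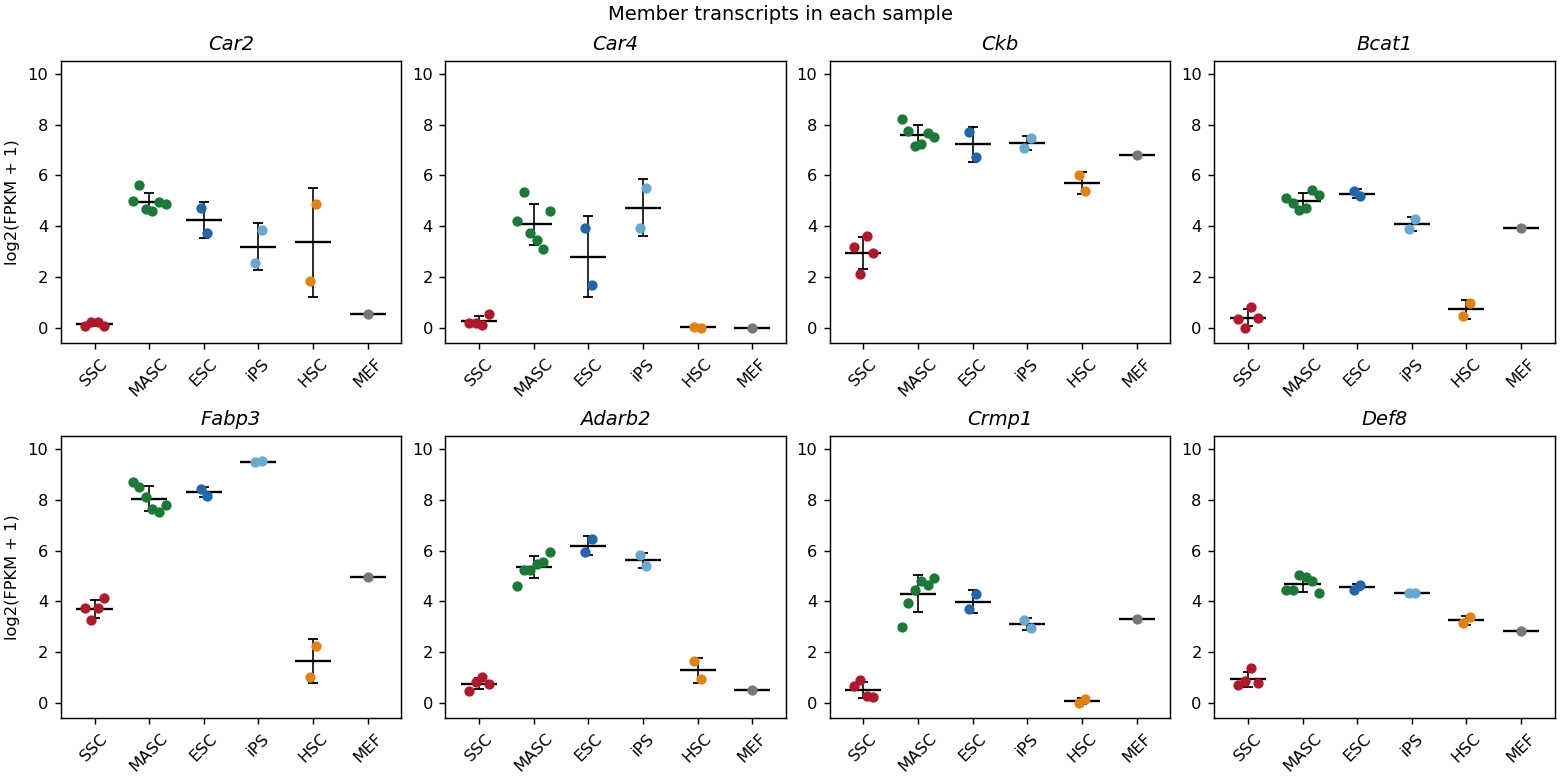
Level of each gene in each of the 17 samples, as log2(FPKM + 1), by cell type. Points are samples, the horizontal bar is the mean and the whiskers are ±1 SD (none for the 1 MEF sample). For all 8 genes, chosen as low in SSC and high in MASC lines, every MASC, ESC and iPS line lies above every SSC line.

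Ckb and Fabp3 differed from the other 6 in that their RNA was readily measured in SSC lines too. Ckb RNA was 7.998, 3.31, 11.2 and 6.71 FPKM in SSC.1 to SSC.4 and ran from 143 over a median of 191 to 299 FPKM in the MASC lines. Its highest SSC value was in SSC.3 and its lowest in SSC.2, which also had the highest and the lowest summed fibroblast markers of the SSC lines. The MEF sample held 110.4 FPKM of Ckb, and the part of feeder RNA in the SSC values was not tested. Fabp3 RNA was 12.3, 8.501, 12.3 and 16.4 FPKM in the SSC lines and ran from 182 over a median of 249 to 413 FPKM in the MASC lines. In the MASC lines Fabp3 ranked within the highest 1.3% of all transcripts and Ckb within the highest 1.8%. The ratio of the mean FPKM was 22.3 for Fabp3 and 27.1 for Ckb.

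Bcat1 RNA was 0.279, 0.0039, 0.764 and 0.315 FPKM in SSC.1 to SSC.4 and ran from 23.9 over a median of 31.0 to 42.1 FPKM in the MASC lines. Adarb2 RNA was 0.376, 0.784, 1.03 and 0.673 FPKM in the SSC lines and ran from 23.4 over a median of 40.2 to 61.1 FPKM. Crmp1 RNA was 0.574, 0.859, 0.218 and 0.170 FPKM in the SSC lines and ran from 6.97 over a median of 22.5 to 29.6 FPKM. For all 3 genes each MASC line lay far above each SSC line, the closest being Crmp1, whose lowest MASC line was 8.12 times its highest SSC line. Def8 RNA was 0.624, 0.832, 1.57 and 0.743 FPKM in the SSC lines and ran from 19.03 over a median of 23.95 to 31.5 FPKM in the MASC lines. SSC.3 was again the highest SSC line for Bcat1, Adarb2 and Def8.

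On the log2(FPKM + 1) scale, which understates the rise of genes near 0, the MASC mean exceeded the SSC mean by 4.81 for Car2, 4.63 for Ckb, 4.61 for Bcat1, 4.58 for Adarb2, 4.33 for Fabp3, 3.82 for Car4, 3.78 for Crmp1 and 3.74 for Def8. The spread within a group was far smaller, with an SD from 0.09 (Car2) to 0.63 (Ckb) among SSC lines and from 0.30 (Def8 and Bcat1) to 0.81 (Car4) among MASC lines. SSC and MASC lines overlapped for 0 of the 8 genes, and the median difference was 4.46. Over all 32661 transcripts, 1.73% were called higher and 2.13% lower in MASC than in SSC lines in the fit described further on, and nothing is read from the 8 genes beside these shares, since they were chosen on this comparison. As a description of the same lines, which the choice of the genes largely fixed, the difference ran from 2.68 (Crmp1) to 5.36 (Ckb) in Oct4-GFP lines and from 3.07 (Car4) to 4.62 (Adarb2) in 129mix lines. Without SSC.1, SSC.3 and MASC.1, the median difference was 4.47. In their groups, SSC.1 had the highest summed pluripotency markers, mostly Pou5f1, and SSC.3 and MASC.1 the highest summed fibroblast markers.

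Whether the level in MASC lines depended on the mouse strain was asked over the 3 strains with 2 lines each, and 0 of the 8 genes passed the test (limma F test, adjusted p under 0.05 over all transcripts, which 1.57% of transcripts passed). An unadjusted p under 0.05 was found for 3 of the 8 genes, against 19.5% of all transcripts. Bcat1 was at 24.7 FPKM in 129mix, 31.0 in Oct4-GFP and 39.1 in Gt(ROSA26)Sor-lacZ lines on average (adjusted p = 0.168). Fabp3 was at 388 FPKM in Oct4-GFP, 236 in 129mix and 202 in Gt(ROSA26)Sor-lacZ lines (adjusted p = 0.226), and Ckb at 258, 146 and 191 FPKM in the same order (adjusted p = 0.245). With 2 lines a strain, these differences could not be separated from the spread between lines. The test took the lines of a strain as independent. The study reports that its MASC lines were subcloned, and the labels do not say whether lines of a strain share an origin. The SSC to MASC difference was also compared between Oct4-GFP and 129mix lines, and 0 of the 8 genes passed the adjusted limit, which 0.744% of transcripts passed. With an unadjusted p under 0.05 there were 2 of the 8, against 11.8% of all transcripts. This comparison uses the lines on which the genes were chosen and only 1 SSC line of 129mix, so nothing is read from it.

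The rise that chose the genes did not use the ESC and iPS lines, although the transcript followed for each gene was taken over all 17 samples. It did use the MASC lines, which the study reports as transcriptionally similar to ESCs and iPS cells. Levels in the ESC and iPS lines were set beside those of the MASC lines. Every value of the 8 genes in the 4 lines lay above the highest SSC line. Low values in SSC lines were part of the choice of the genes, and this count was not made over all transcripts. Of the 16 values in the ESC lines, 12 fell within the range of the MASC lines, 3 below and 1 above. Of the 16 in the iPS lines, 6 fell within, 7 below and 3 above. Each set of 16 pools the 8 genes over the lines of a cell type, so its values are not independent. These range counts were not made over all transcripts either, and no contrast of ESC with iPS lines is read from them. The value above the range in ESC lines was Adarb2 in ESC.2, at 86.4 FPKM against at most 61.1 in MASC lines. In iPS lines Fabp3 stood at 707 and 732 FPKM, above every other sample, and Car4 at 44.8 FPKM in iPS.2, above the MASC range that ended at 39.5. The iPS values below the MASC range were those of Car2 and Bcat1 in both lines and of Ckb, Crmp1 and Def8 in 1 line each.

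Between iPS and ESC lines, 0 of the 8 genes passed the test (limma, adjusted p under 0.05 over all transcripts and a log2 difference of at least 2), against 0.0429% of all transcripts, and 3 of the 8 had an unadjusted p under 0.05, against 8.03% of all transcripts. Bcat1 RNA was 41.2 and 35.0 FPKM in ESC.1 and ESC.2 and 13.8 and 18.6 FPKM in iPS.1 and iPS.2, without overlap. The difference of iPS from ESC lines was -1.20 ± 0.30 (SE, n = 2 and 2, log2 scale, limma adjusted p = 0.164). Fabp3 RNA was 344 and 283 FPKM in the ESC lines, below both iPS lines, and the difference was 1.20 ± 0.45 (limma adjusted p = 0.467). Car4 RNA was 14.2 and 2.20 FPKM in the ESC lines and 14.4 and 44.8 FPKM in the iPS lines, so that ESC.1 and iPS.1 were close, and the difference was 1.93 ± 0.79 (limma adjusted p = 0.545). For the other 5 genes the difference lay between -1.04 (Car2) and 0.06 (Ckb). Of these 5, Adarb2, Crmp1 and Def8 also showed no overlap, with both ESC lines above both iPS lines. Such separation of the lines was not counted over all transcripts.

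Whether the 8 genes were also high in pluripotent lines relative to a somatic stem cell was asked with the HSC cultures. The genes were chosen for high RNA in MASC lines, which the study reports as transcriptionally similar to ESCs and iPS cells. High levels in ESC and iPS lines were thus partly given by that choice, here and against the MEF sample below. Shares over all transcripts, which were not chosen by level, are given for scale only. Of the 8 genes, 5 were called higher in ESC and iPS lines than in HSC cultures and 0 lower, against 4.00% of all transcripts called higher and 4.56% lower, and the median difference of the 8 was 3.61 on the log2 scale against 0 over all transcripts. The 5 were Fabp3, Adarb2, Bcat1, Car4 and Crmp1, that is the fatty acid carrier, the editing family transcript, the amino acid enzyme, the membrane carbonic anhydrase and the cytoskeletal protein. Fabp3 RNA was 1.05 and 3.78 FPKM in HSC.1 and HSC.2, lower than in every SSC line, and the difference was 7.25 ± 0.39 (SE, 4 lines against 2, limma adjusted p = 5.05e-08). Adarb2 RNA was 2.10 and 0.923 FPKM in the HSC cultures against 41.4 to 86.4 in the ESC and iPS lines, with a difference of 4.62 ± 0.32 (limma adjusted p = 5.73e-07). Bcat1 RNA was 0.384 and 0.991 FPKM in the HSC cultures, and the difference was 3.96 ± 0.26 (limma adjusted p = 3.32e-07).

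Car4 and Crmp1 were close to absent from HSC cultures. Car4 was at 0.0278 FPKM in HSC.1 and listed at 0 in HSC.2, and the difference was 3.75 ± 0.68 (limma adjusted p = 0.00118), which did not pass when the 6 ESC, iPS and HSC samples were fitted alone (limma adjusted p = 0.069). Crmp1 was listed at 0 in HSC.1 and was at 0.108 FPKM in HSC.2, against 6.69 to 18.8 in the pluripotent lines, and the difference was 3.47 ± 0.46 (limma adjusted p = 1.10e-04). For each of the 5 genes, HSC cultures and pluripotent lines did not overlap, a count that was not made over all transcripts.

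The other 3 genes were well expressed in at least 1 HSC culture. Ckb RNA was 63.0 and 41.1 FPKM in HSC.1 and HSC.2, below the lowest pluripotent line at 105.5 FPKM, and the difference of 1.55 ± 0.42 (limma adjusted p = 0.0136) was under the size limit. Def8 RNA was 7.74 and 9.30 FPKM, and the difference of 1.19 ± 0.22 (limma adjusted p = 0.00133) was likewise under that limit. Both would be called at a log2 difference of at least 1, which 3592 of the 32661 transcripts passed on the higher side. Car2 was the exception, at 2.62 FPKM in HSC.1 and 28.5 FPKM in HSC.2, the latter above all 4 pluripotent lines, which held 25.5, 12.3, 4.81 and 13.4 FPKM. The difference was 0.34 ± 0.65 (limma adjusted p = 0.822), and it was 1.86 without HSC.2 and -1.17 without HSC.1. The other carbonic anhydrases did not all differ in the same direction between the HSC cultures, with Car1 at 0.40 FPKM in HSC.1 and 7.13 in HSC.2, Car9 at 18.3 and 8.55, and Car12 at 3.24 and 0.58. HSC.2 also held 446 FPKM of the fibroblast markers against 2.33 in HSC.1, and the MEF sample held 0.48 FPKM of Car2. The part of other cells in the Car2 level of HSC.2 was not tested.

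**Figure D2:**
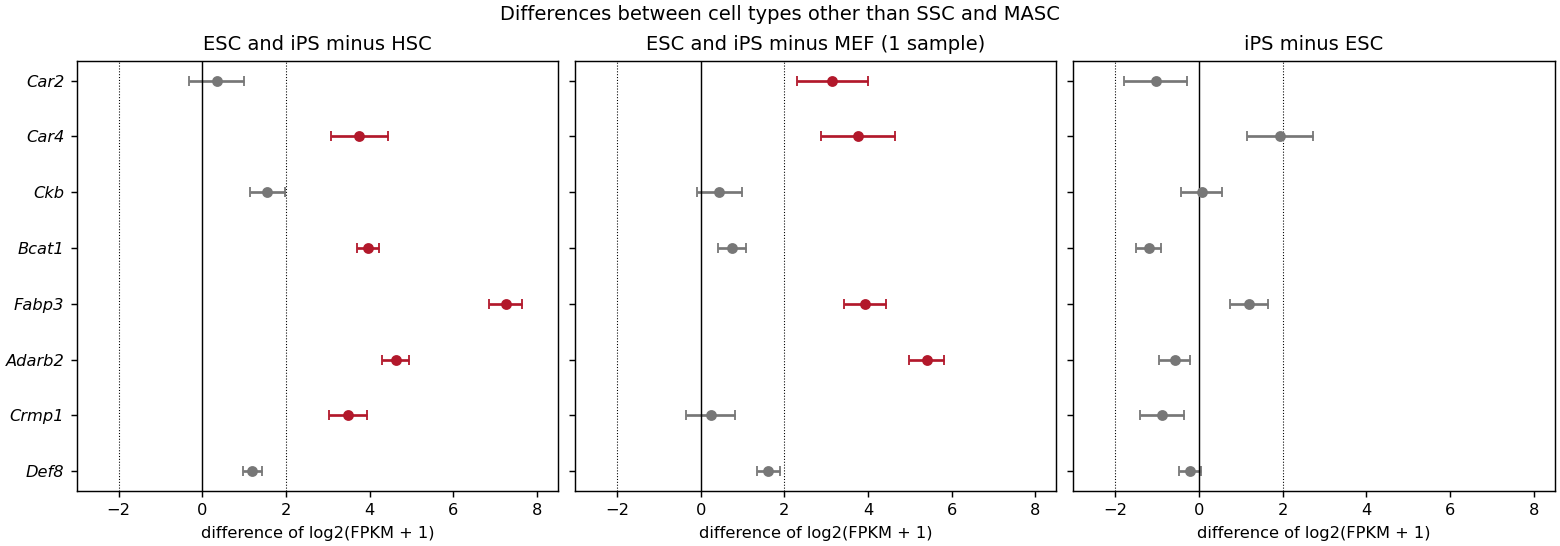
Differences of log2(FPKM + 1) for the 8 genes between cell types other than SSC and MASC, from a fit over all 17 samples. Points are differences, bars ±1 SE, dotted lines a difference of 2 in either direction and red points the called genes, which are 5 of 8 against HSC, 4 of 8 against MEF and 0 of 8 between iPS and ESC lines.

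Against the MEF sample, which is 1 library taken to vary like the other groups, 4 of the 8 genes were called higher in ESC and iPS lines and 0 lower, beside 4.14% and 4.11% of all transcripts. Adarb2 stood at 0.42 FPKM in MEF, within the SSC range, and the difference was 5.40 ± 0.42 (SE, limma adjusted p = 3.71e-06). Fabp3 stood at 30.4 FPKM in MEF, above every SSC line but below every pluripotent line, with a difference of 3.92 ± 0.50 (limma adjusted p = 1.76e-04). Car4 was listed at 0 in MEF, with a difference of 3.77 ± 0.88 (limma adjusted p = 0.00839), and Car2 stood at 0.48 FPKM, with a difference of 3.15 ± 0.84 (limma adjusted p = 0.0175). Both carbonic anhydrases were thus low in fibroblasts as in SSC lines.

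The remaining 4 genes were expressed in the fibroblasts. Ckb stood at 110.4 FPKM in MEF, between ESC.2 and the other pluripotent lines, with a difference of 0.45 ± 0.54 (limma adjusted p = 0.719). Bcat1 stood at 14.3 FPKM, between iPS.1 and iPS.2, with a difference of 0.75 ± 0.34 (limma adjusted p = 0.138). Crmp1 stood at 8.90 FPKM, above both iPS lines and below both ESC lines, with a difference of 0.24 ± 0.59 (limma adjusted p = 0.970). Def8 stood at 6.06 FPKM, the lowest value outside the SSC lines, and its difference of 1.62 ± 0.28 (limma adjusted p = 0.00152) was under the size limit but past one of 1, which 3313 of the 32661 transcripts passed on the higher side. SSC lines were thus the lowest of all samples for Car2, Ckb and Def8, whereas for Bcat1, Fabp3, Adarb2, Crmp1 and Car4 between 1 and 3 of the 13 other samples, all HSC or MEF, did not exceed the highest SSC line.

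Ordered by mean level, MASC lines came first for Car2, Ckb, Crmp1 and Def8, ESC lines for Bcat1 and Adarb2, and iPS lines for Car4 and Fabp3. The first place and its neighbour overlapped in their samples for all but Fabp3, where both iPS lines stood above both ESC lines, and Adarb2, where both ESC lines stood above both iPS lines. The last place belonged to the SSC lines for Car2, Ckb, Bcat1 and Def8, to HSC for Fabp3 and Crmp1, and to MEF for Car4 and Adarb2. The last place and its neighbour overlapped for Bcat1, where HSC.1 lay within the range of the SSC lines, for Adarb2, where the MEF sample lay within that range, and for Car4, listed at 0 in MEF and in HSC.2. Across the 17 samples the levels of the 8 genes correlated in every pair, with Pearson's r from 0.63 (Car2 with Fabp3) to 0.95 (Bcat1 with Crmp1) on the log2 scale, a description over samples that share cell types.

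More than 1 RefSeq transcript is listed for 4 of the genes, and the form that carried the RNA was examined. Nearly all of the Adarb2 signal lay on NR_110345, a transcript annotated as noncoding at chr13:8202112-8768008 (mm9), which held at least 97.7% of the summed FPKM of the gene in every sample. The coding forms NM_052977 and NM_001289530, which share its start but end at 8759688, reached at most 0.0176 FPKM in any sample. The GENCODE M1 transcript Adarb2-003, with 11 exons, covers nearly the same span, to 8767993. The Adarb2 values are thus those of a noncoding RefSeq form, and how Cufflinks divided reads in the exons the forms share was not tested.

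Bcat1 RNA lay mainly on NM_007532 (chr6:144942355-145024677), which held 89.2% to 95.3% of the gene's FPKM in MASC lines, 90.0% and 92.1% in ESC lines and 98.7% in the MEF sample. In iPS.1 the shorter NM_001024468, which starts within that span at 144997332 on the minus strand, held 34.8%, or 7.35 FPKM, and in iPS.2 it held 13.1%. Both iPS lines thus lay above the MASC range of this form's share, which ended at 10.8%. Its level in iPS.2, 2.81 FPKM, lay within the MASC range of 1.24 to 3.50 FPKM and below both ESC lines (3.53 and 3.89 FPKM). Crmp1 RNA lay mainly on NM_007765 (chr5:37637003-37683402), with 82.2% to 88.8% in MASC lines and 99.2% in MEF, whereas in the HSC cultures the form NM_001136058, which starts upstream at 37633297, held 82.1% and 100.0% of a summed level under 1 FPKM. Def8 RNA was split over 4 forms between 125966856 and 125987799 of chromosome 8, with 72.2% to 78.4% on NM_054046 in MASC lines and 56.9% in MEF. In SSC lines these shares rest on values under 2 FPKM.

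**Figure D3:**
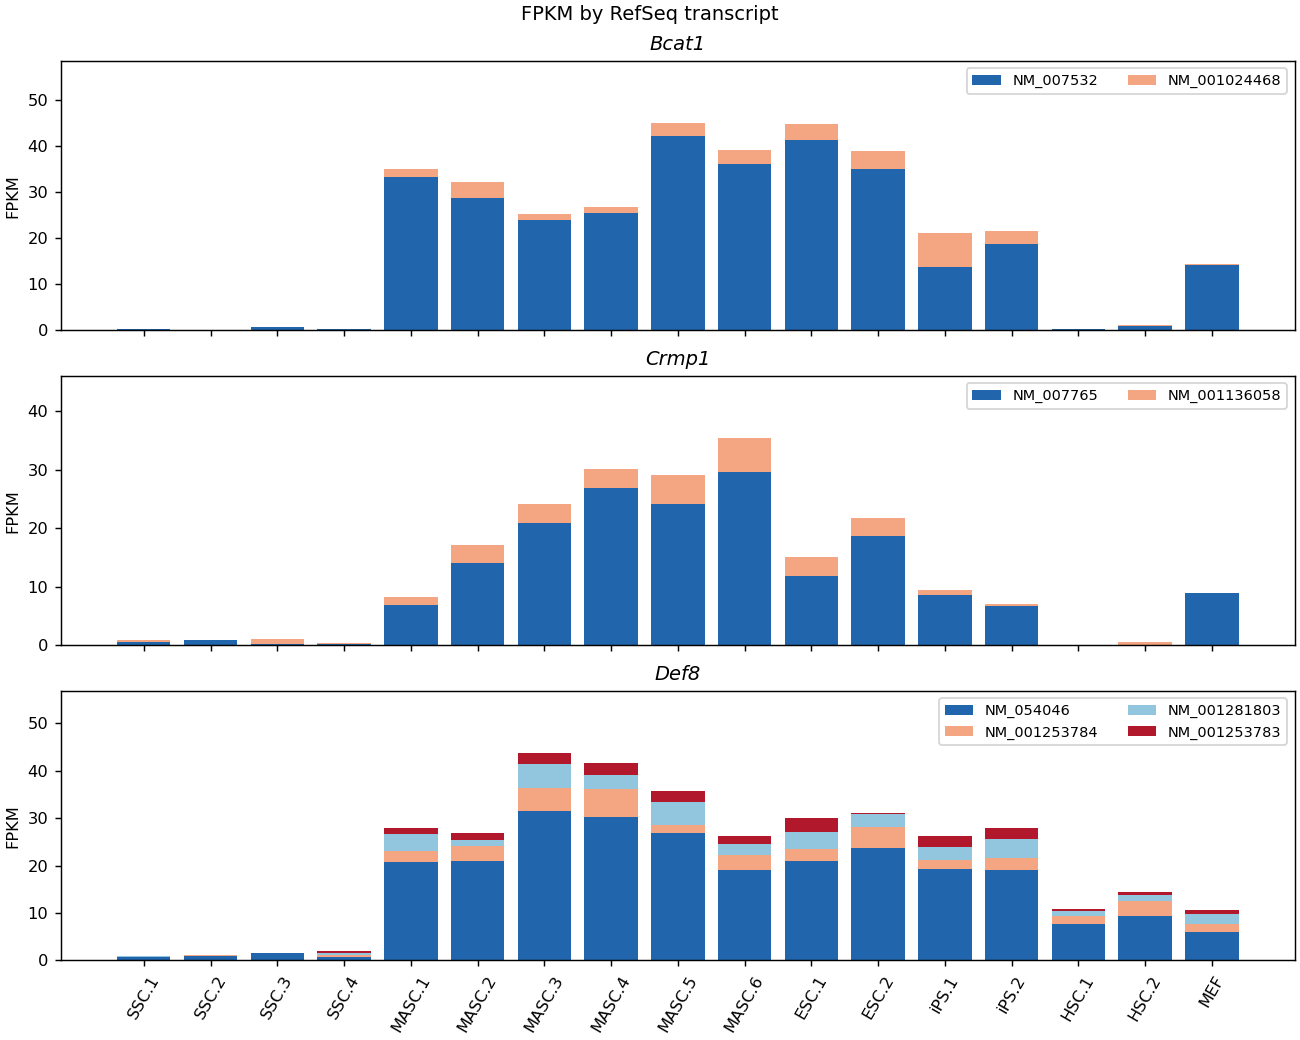
FPKM of each RefSeq transcript of Bcat1, Crmp1 and Def8 in the 17 samples, stacked. One form makes up most of each bar in the MASC and ESC lines, and the second Bcat1 form is largest in iPS.1, at 7.35 FPKM.

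Car2 lies at chr3:14886426-14900770, Car4 at chr11:84771256-84779556, Ckb at chr12:112907566-112910549 and Fabp3 at chr4:129986022-129992707 (mm9, whole transcripts), each with a single RefSeq form. The 8 genes lie on 8 different chromosomes.

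To see whether the rise extended to relatives and pathway partners, 80 other genes in 7 lists were compared between MASC and SSC lines (limma over the 12 SSC, MASC and ESC lines, adjusted p under 0.05 over all transcripts and a log2 difference of at least 2). Of the 80 genes, 3 were called higher and 1 lower, and their median difference was 0.01, beside 1.73% of all transcripts called higher and 2.13% lower. The number called depended on the limits. At a log2 difference of at least 1 it was 17 higher and 15 lower, beside 6.04% and 9.60% of all transcripts, and with a pseudocount of 0.1 it was 12 higher and 5 lower, beside 3.87% and 5.98%. An unadjusted p under 0.05 was found for 47 of the 80 genes, against 39.9% of all transcripts. Bcat2, the mitochondrial partner of Bcat1, stood at 2.07, 0.534, 6.61 and 1.13 FPKM in SSC.1 to SSC.4 and from 17.4 to 56.5 FPKM in the MASC lines, with no overlap. It rose by 3.44 ± 0.49 (SE, limma adjusted p = 5.34e-04), beside the higher level of Bcat1 given above. Of the 21 other genes of branched-chain amino acid breakdown and uptake, 0 were called by limma, and 12 had an unadjusted p under 0.05. Of these 12, Bckdha (-0.66) and Slc7a5 (-0.81) were lower in MASC lines and the others higher. Dbt (1.77), Pccb (1.58), Pcca (1.49), Acad8 (1.11), Mut (1.10), Mccc1 (1.03) and Ivd (1.00) would be called at a log2 difference of at least 1. None of the list would be called lower at that limit.

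Def6 rose from a range of 0.695 to 3.01 FPKM to one of 9.91 to 25.0 FPKM, by 2.48 ± 0.29 (limma adjusted p = 1.70e-04). Fabp7, a fatty acid carrier of brain and neural progenitors, was at 0 to 0.0927 FPKM in SSC lines and at 0.412 to 14.0 FPKM in MASC lines, and rose by 2.24 ± 0.55 (limma adjusted p = 0.0116). The Fabp7 call was lost without MASC.6 (1.92) and with strain (1.68, limma adjusted p = 0.0643) in the model. Adad1, a testis protein of the editing deaminase family, fell by 2.46 on the log2 scale (SE 0.67, limma adjusted p = 0.0191), from 0.359 to 21.2 FPKM in SSC lines to at most 0.456 FPKM in MASC lines. The Adad1 call was lost without SSC.1 (-1.91), without SSC.3 (-2.06, limma adjusted p = 0.0575), without SSC.1, SSC.3 and MASC.1 together (-0.97) and with strain in the model, where the difference stayed at -2.10 (limma adjusted p = 0.130).

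None of the 14 other carbonic anhydrases was called by limma, and 6 had an unadjusted p under 0.05. Car13, a cytosolic form, was at 0.667 to 1.29 FPKM in SSC lines and 3.71 to 9.74 FPKM in MASC lines, a difference of 1.69 ± 0.22 (limma adjusted p = 2.77e-04) under the size limit, and Car12, a membrane form, was at 1.60 to 6.05 and 0.211 to 0.802 FPKM, a difference of -1.62 ± 0.31 (limma adjusted p = 0.00331). With a pseudocount of 0.1 both were called, Car13 at 2.40 and Car12 at -2.76. Car3 was at 0 to 0.0178 FPKM in SSC lines and 1.18 to 2.58 FPKM in MASC lines. Its difference of 1.55 ± 0.14 (limma adjusted p = 3.38e-05) was under the size limit, on a scale that understates the rise of genes near 0. Car7, Car11 and Car15 differed in the other direction, by -1.15, -1.29 and -1.10. None of the 6 other creatine genes was called, 5 having an unadjusted p under 0.05, and the mitochondrial kinase Ckmt1 differed by 1.41 ± 0.33 (limma adjusted p = 0.00859). Of these 5, Slc6a8 (1.93) was also higher in MASC lines, and Gamt (-1.32), Gatm (-1.05) and Ckm (-0.35) were lower. Of the 18 fatty acid binding and uptake genes only Fabp7 was called, and Fabp5 differed by 0.90 ± 0.48 (limma adjusted p = 0.201). A further 8 had an unadjusted p under 0.05. Of these 8, Cpt1b was higher in MASC lines (1.34) and the others lower, among them Acsl1 (-1.61), Acsl3 (-1.61), Fabp4 (-1.35) and Slc27a4 (-1.25). Among the 7 RNA editing genes, Adarb1, an active editing enzyme and the closest relative of Adarb2, differed in the other direction, at 5.83 to 7.42 FPKM in SSC lines and 1.13 to 1.55 FPKM in MASC lines (-1.74 ± 0.11, limma adjusted p = 3.38e-06, under the size limit), and it passed that limit when the FPKM of all its transcripts was summed (-2.23). None of the 7 genes of the Crmp1 and dihydropyrimidinase list was called, 4 having an unadjusted p under 0.05, with Dpysl3 at 1.40 ± 0.35 (limma adjusted p = 0.0135) and Dpysl2 at -0.84 ± 0.30 (limma adjusted p = 0.0579). Of the 6 lysosome and autophagy genes listed with Def8 only Def6 was called, and the lysosomal adaptor Plekhm1 differed by 0.98 ± 0.21 (limma adjusted p = 0.00572). The 5 uncalled genes all had an unadjusted p under 0.05. Of these 5, Plekhm1 and Rab7 (0.78) were higher in MASC lines. The others, 1700021K19Rik (-1.56), Plekhm3 (-1.40) and Plekhm2 (-0.80), were lower.

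**Figure D4:**
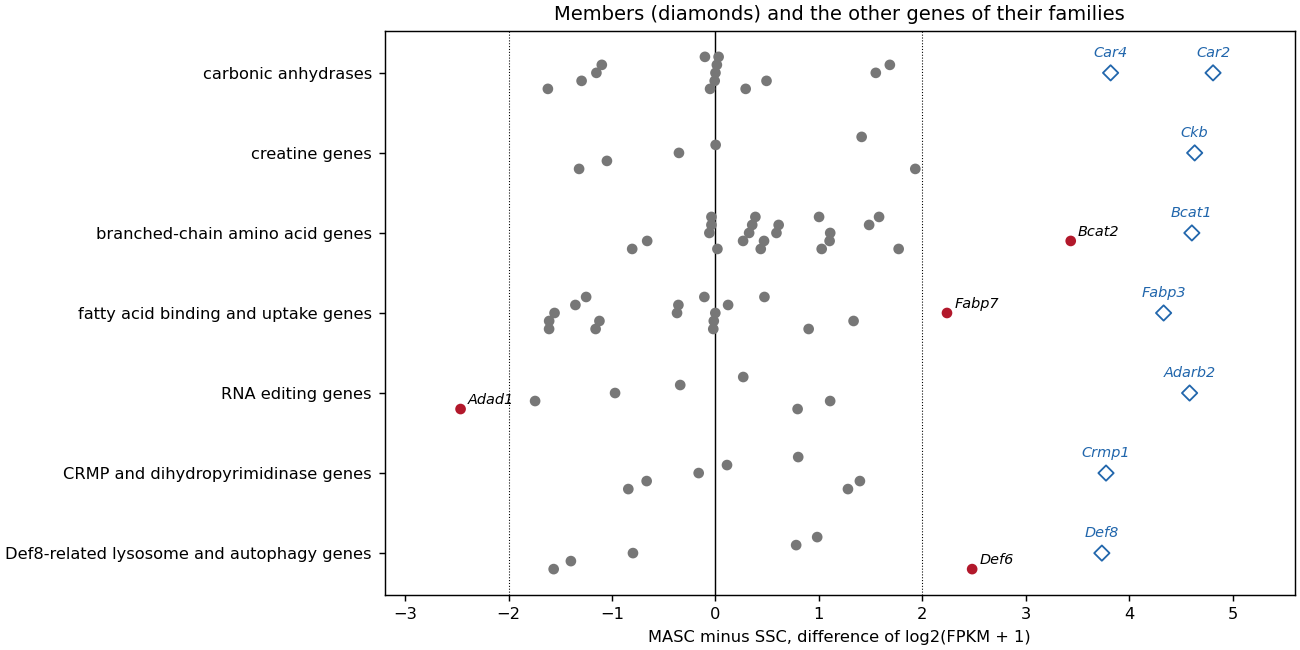
Difference of log2(FPKM + 1) between MASC and SSC lines for the 80 other genes of the 7 lists (dots, red where called) and for the 8 genes themselves (open diamonds, chosen on this difference). The 4 called relatives are Bcat2, Def6 and Fabp7 on the higher side and Adad1 on the lower, and dotted lines mark a difference of 2.

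The genes whose levels ran most like each of the 8 over the 17 samples were taken by Pearson's r on the log2 scale among 17140 transcripts with a mean of at least 1 FPKM. They were Proser1 for Car2 (0.94), Prph for Car4 (0.98), Nmt1 for Ckb (0.97), Etl4 for Bcat1 (0.98), Ptprk for Fabp3 (0.98), L1td1 for Adarb2 (0.99), Cth for Crmp1 (0.96) and Ddx19b for Def8 (0.98). Dnmt3b, a de novo DNA methyltransferase of early embryonic cells, came after Prph and Lrrn4 for Car4 (0.97), and Etl4 was also among the first 3 for Crmp1 (0.95). None of the 8 genes was among the first 3 of another. The samples share cell type, medium and strain, so these correlations describe the 17 samples only.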

How the data were processed

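The authors deposited 1 Cufflinks table per sample with an FPKM for each RefSeq transcript. Per the submitters' processing notes, reads were aligned to mm9 with TopHat2 (2.0.11) and levels estimated with Cufflinks, and the study's methods state that duplicate and multiply mapped reads were left out and that upper-quartile and GC normalization were used. The coverage deposited beside each FPKM is a signal in reads per base, which was between 1.26 and 3.23 at 1 FPKM. The files used hold no read counts, so the depth behind single values is known only through that coverage.

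Of 33262 rows, 601 further loci of a transcript were left out. Values were used as log2(FPKM + 1), a pseudocount of 1, without a filter on low values. Models were fitted in R 4.3.3 with limma 3.58.1 (eBayes without a trend) over all 17 samples for the HSC, MEF and iPS comparisons, the 12 SSC, MASC and ESC lines for MASC minus SSC and its strain difference, and the 6 MASC lines for strain. A transcript was called at a Benjamini-Hochberg adjusted p under 0.05 and an absolute log2 difference of at least 2 (adjusted p alone for strain). The script was tested on simulated data. The named genes are the 8 genes, their other RefSeq transcripts, the called and nearest genes of the 7 lists, with 1 transcript a gene, and the 3 transcripts most like each gene. These genes and lists were chosen with earlier results of these data known. Car1, Car3 and the further uncalled genes of the lists, beyond the nearest relatives, were named after their values were seen. Shares of all transcripts at other limits were added after seeing the data. Lists, markers and strains came from the design and the labels. Coordinates are 1-based. Alternatives were another pseudocount, a filter, quantile normalization, a trend, sums per gene, other size and p limits, other sets of samples and left-out samples.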

Additional observations from a re-analysis of the deposited data

How the results depend on the processing

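No called result reversed. The counts of 5 genes called against HSC, 4 against MEF and 0 between iPS and ESC lines were the same with each sample left out in turn; among the other alternatives run they became 7 and 5 at a log2 difference of at least 1, and 4 against HSC when the ESC, iPS and HSC samples were fitted alone. Leaving out one line each gave 0 genes for strain and for the strain difference, 4 to 6 called relatives (3 to 4 higher, 0 to 2 lower) and a median MASC to SSC difference of the 8 genes from 4.27 to 4.52. Counted by an unadjusted p under 0.05 there were 3 genes for strain among MASC lines and 2 for the strain difference, none of which passed the adjusted limit. A pseudocount of 0.1 raised the median difference of the 8 genes to 5.47 and the called relatives to 17 (12 higher, 5 lower), and a log2 difference of at least 1 to 32 (17 higher, 15 lower), settings under which more of all transcripts were called too. Quantile normalization gave 5 higher relatives, and FPKM summed per gene symbol 3 lower ones. Leaving out SSC.1, SSC.3 and MASC.1 together, chosen after seeing the data, gave 2 lower relatives. The strain difference could not be fitted without SSC.4, nor the MEF comparison without its sample.

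With the replicate number as a block, 3 relatives were called higher and 0 lower, and the Fabp7 and Adad1 calls were lost (limma adjusted p = 0.0575 and 0.126). The replicate block left 5 genes called against HSC and 0 between iPS and ESC lines in a fit without MEF. The numbers do not pair the samples: deviations of same-numbered SSC and MASC lines correlated at -0.225 to 0.185 (4 pairs), and 0 of 4 SSC lines correlated best with their own number. Values under 1 FPKM rest on few reads per base, which limits the ratios of Car2, Car4 and Bcat1 most.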
